A study of Mus musculus with 6 samples.

Results

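MicroRNAs hold messenger RNAs down by pairing of their seed with short sites, most of them in the 3' untranslated region, and Dicer is the ribonuclease that cuts their precursors into mature form. In mouse pluripotent cells 3 families, miR-290, miR-302 and miR-17, are abundant and have closely related seeds, so that a messenger with a site for 1 family can often pair with the others as well. The 9 genes described here, Irf2, Mbd2, Arid4b, Zbtb4, Cfl2, Rhoc, Fndc3a, Tmem2 and Ei24, are each listed as a reported target of at least 1 of these families, and the single reports were not checked here. They were taken by exact gene symbol from 20193 genes that the array measured, and each had 1 probe set. They are targets that belong to no single pathway: 4 encode transcription or chromatin proteins, 4 act in the cytoskeleton, in adhesion or at the cell surface, and 1 is a protein of the endoplasmic reticulum.

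The cells were epiblast stem cells (EpiSCs), mouse cells of the primed pluripotent state, grown in N2B29 medium on plates coated with FCS, with Activin at 20 ng/ml and bFGF at 12 ng/ml. Control samples had the genotype Dicer fx/fx, 2 conditional Dicer alleles, and were never exposed to 4-OH-Tamoxifen. Deleted samples, labelled Dicer -/-, came from the same cells after 3 days in 0.3 µM 4-OH-Tamoxifen and 2 further days of culture, with RNA prepared on day 5. Each of 3 deletion experiments, numbered 18, 19 and 20, gave 1 control and 1 deleted sample, 6 Affymetrix gene arrays in all. The recombinase that the drug sets in motion, and how many lines were used, are not given in the sources used here. Drug exposure went with deletion in every sample, so the effects of these cannot be told apart.

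The array gives an intensity for each probe set on a linear scale, and differences below are log2 values of deleted minus control. Median intensity over all probe sets ranged from 247.7 to 260.1 across the 6 arrays, and the number of arrays limits the precision. The targeted gene followed the labels. Dicer1 intensity was 1836, 2079 and 2098 in controls 18, 19 and 20 and 601.6, 553.1 and 645.4 in the deleted samples. The marker genes Pou5f1 (mean log2 level 12.76), Otx2 (12.70), Fgf5 (11.60) and Dnmt3b (11.78), which primed cells express, were above the median gene level of 8.29, and the naive markers Zfp42 (6.06), Dppa3 (6.05) and Esrrb (7.22) below it. Of 9 measured naive markers, 3 were above it: Klf4 (8.91), Klf2 (9.15) and Klf5 (10.46). Of 12 primed markers 11 were at or above it, and Lefty2 (7.58) was below. Markers of other cell types were also at or above it: 8 of 12 for mesoderm and endoderm, 4 of 6 for neural ectoderm and 3 of 12 for fibroblasts. Levels of different probe sets are only roughly comparable, and no detection calls were used, so a marker cannot be called absent. Controls were not alike: the summed intensity of 12 mesoderm and endoderm markers was 3779 in control 18, 6717 in control 19 and 26621 in control 20, and in the deleted samples 4134, 8404 and 19759. Of those 12 markers 3 were higher and 5 lower in each experiment. Their median difference was -0.12, 0.10 and -0.23 in experiments 18, 19 and 20. The sum over 6 neural ectoderm markers was 3956, 5869 and 5185 in controls 18, 19 and 20 and 4904, 6347 and 7198 in the deleted samples, each above its control. Of these 6 markers Nes, Fabp7 and Ncam1 were higher and Neurog2 lower in each experiment. Over all genes the shares for such counts were 15.2% higher and 28.3% lower. Over genes at or above the median level they were 23.3% and 21.6%. The sum over 12 fibroblast markers lay between 2629 and 2825 for the controls and between 2626 and 2881 after deletion. The part of these markers in the values of the 9 genes was not tested. In such bulk samples, fewer cells that express a gene and less of its RNA per cell cannot be told apart.

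The mature sequences of the families, from RefSeq on GRCm38.p6, show what they share. The capitals mark the seed, bases 2 to 8 from the 5' end. Of 19 microRNAs looked up 17 were matched, and 15 of these carry AAGUGC within their first 8 bases. The following lines give microRNAs of all 3 families, ordered by seed, with those of the seed AAGUGCU first, then AAAGUGC, then 3 that depart from both.
mmu-miR-291a-3p (chr7:3218968-3218989, + strand): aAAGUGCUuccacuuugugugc
mmu-miR-294-3p (chr7:3220691-3220712, + strand): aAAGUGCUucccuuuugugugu
mmu-miR-295-3p (chr7:3220815-3220837, + strand): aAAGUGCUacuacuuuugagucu
mmu-miR-302b-3p (chr3:127545275-127545297, + strand): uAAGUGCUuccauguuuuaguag
mmu-miR-302d-3p (chr3:127545665-127545687, + strand): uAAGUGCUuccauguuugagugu
mmu-miR-17-5p (chr14:115043684-115043706, + strand): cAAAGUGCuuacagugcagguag
mmu-miR-20a-5p (chr14:115044183-115044205, + strand): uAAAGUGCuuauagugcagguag
mmu-miR-93-5p (chr5:138165574-138165596, - strand): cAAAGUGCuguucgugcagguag
mmu-miR-106b-5p (chr5:138165787-138165807, - strand): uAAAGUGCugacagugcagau
mmu-miR-290a-3p (chr7:3218674-3218697, + strand): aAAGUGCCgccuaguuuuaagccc
mmu-miR-291b-3p (chr7:3219529-3219550, + strand): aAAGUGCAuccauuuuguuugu
mmu-miR-293-3p (chr7:3220390-3220411, + strand): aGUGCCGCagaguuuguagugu
The seed AAGUGCU is shared by 5 of the 17, from the miR-290 and miR-302 families, and pairs with the site AGCACUU. The seed AAAGUGC, in all 6 members of the miR-17 family, is the same core moved by 1 base and pairs with GCACUUU. Both sites hold GCACUU. The miR-293 seed lacks the core, although the miRNA comes from the same cluster. Sites in the messengers of the 9 genes are not analysed here.

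The first question was whether these messengers were higher once Dicer was lost. The mean was higher in deleted cells for 8 of the 9 genes, against 37.8% of all genes. The same 8 were higher in each of the experiments, against 15.2% of all genes, and 0 were lower in each of them, against 28.3%. All 9 lie in the brighter part of the array, the 10097 genes with a mean level no lower than the median. Of those brighter genes 50.3% had a higher mean, 23.3% were higher in each experiment and 21.6% lower in each. The median difference of the 9 genes was 0.34, beside -0.04 over all genes and 0.00 over the brighter ones. By experiment the median of the 9 was 0.15 in 18, 0.29 in 19 and 0.48 in 20. The primed epiblast markers also differed between experiments. The median difference of these 12 genes was 0.26, 0.15 and -0.52, and their summed intensity was 35394, 41662 and 52428 in controls 18, 19 and 20 and 41637, 45116 and 46864 in the deleted samples. Nanog, a pluripotency factor among them, had an intensity of 4518 in control 20 and 1915 in deleted 20, with differences of 0.29, -0.03 and -1.24 by experiment. T, also among them and in their sum, had intensities of 347.8, 271.1 and 7004 in controls 18, 19 and 20. In the deleted samples T had 1012, 1200 and 11797. T and Sox2 were higher in each experiment, and 0 of the 12 were lower in each. The part of these markers in the differences of the 9 genes was not tested. None passed the test over all genes: limma gave adjusted p-values from 0.824 to 0.990, and from 0.159 to 0.554 with the experiment as a block. The share called higher over all genes was 0%, and 1 gene, Dicer1, was called lower (0.00495%).

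At an unadjusted p under 0.05, limma counted 3 of the 9 genes as higher, Arid4b, Cfl2 and Fndc3a, and 0 as lower. Of all genes 2.22% were higher and 3.77% lower by that mark, and 3.86% of the brighter genes were higher. With the experiment as a block it counted 6, now also with Irf2, Mbd2 and Ei24, and 0 as lower, beside 8.04% of all genes higher and 9.05% lower, and 13.6% of the brighter ones higher. The arrays of deleted samples lay above all controls for 4 genes, Arid4b, Cfl2, Fndc3a and Ei24, against 3.26% of all genes and 5.04% of the brighter ones. For these 4 the two-sided exact permutation test gave p = 0.1, the smallest that 3 arrays against 3 allow. Irf2 was the 1 gene of the 9 with a mean at least 1.5-fold higher, a mark that, with a higher value in each experiment, 0.896% of all genes and 1.55% of the brighter ones met.

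**Figure D1:**
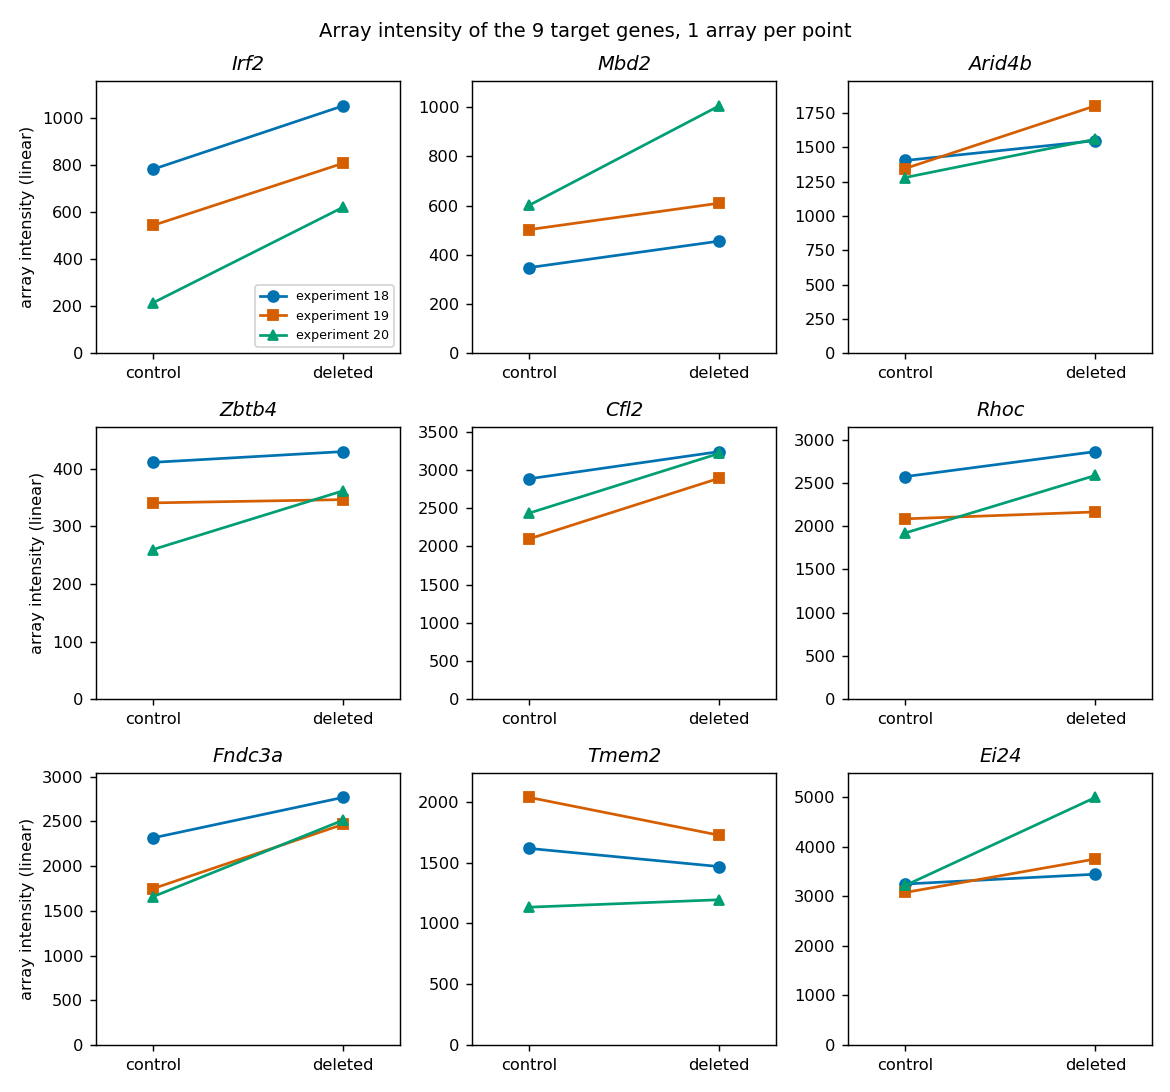
Linear array intensity of the 9 genes, 1 point per array, with a line joining the control and deleted sample of an experiment. The lines slope upward in all 3 experiments for 8 genes, while for Tmem2 they slope downward in experiments 18 and 19.

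Among the transcription and chromatin genes, Irf2 had the largest mean difference of the 9. It encodes interferon regulatory factor 2, a transcription factor known for opposing IRF1 at interferon-responsive promoters. Its intensity was 781.8, 543.4 and 214.5 in controls 18, 19 and 20 and 1052, 807.6 and 621 in the deleted samples. Each deleted sample was above its own control, but deleted 20 was below control 18, so the groups overlapped. The mean log2 level went from 8.81 ± 0.96 to 9.66 ± 0.38 (SD, n = 3), a difference of 0.84 ± 0.50 (SE). Each ± of a difference is the SE of limma without the experiment as a block, except in the fit without experiment 20. The signal was 1.35-fold higher in experiment 18, 1.49-fold in 19 and 2.89-fold in 20. The controls alone spanned 3.64-fold, wider than the 1.69-fold span of the deleted samples. With the experiment as a block the 95% interval of the difference ran from 0.27 to 1.42, and without it from -0.41 to 2.09. With the block and without experiment 20, Irf2 was at 0.50 ± 0.08 and rose with a limma adjusted p of 0.0351, the 1 call among the 9 genes under any setting run; that fit rests on 2 pairs and called 1.55% of all genes higher and 0.366% lower.

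Mbd2 encodes a reader of methylated CpG that brings the NuRD co-repressor to methylated DNA. Its intensity was 348.1, 502.4 and 601.1 in controls 18, 19 and 20 and 455.7, 609.8 and 1005 in the deleted samples. The order of the experiments was the reverse of that of Irf2, with experiment 18 lowest and 20 highest in both groups, and the groups overlapped. The difference was 0.47 ± 0.34 (n = 3), made up of 0.39, 0.28 and 0.74 in experiments 18, 19 and 20. The block narrowed its 95% interval from between -0.39 and 1.33 to between 0.20 and 0.74, the largest change of SE among the 9, by a factor of 3.32.

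Arid4b encodes an ARID-domain subunit of the SIN3 histone deacetylase complex. Its intensity was 1404, 1345 and 1280 in the controls and 1548, 1802 and 1559 in deleted 18, 19 and 20, and the groups did not overlap. The difference of 0.28 ± 0.09 stood beside controls that spanned 1.1-fold. Zbtb4 encodes a zinc finger repressor that binds methylated CpG. Its intensity was 411.3, 340.9 and 259.9 in the controls and 430, 346.6 and 361.9 in deleted 18, 19 and 20. The signal was 1.05-fold and 1.02-fold higher in experiments 18 and 19 and 1.39-fold in 20, so the mean difference of 0.19 ± 0.19 came mostly from experiment 20.

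**Figure D2:**
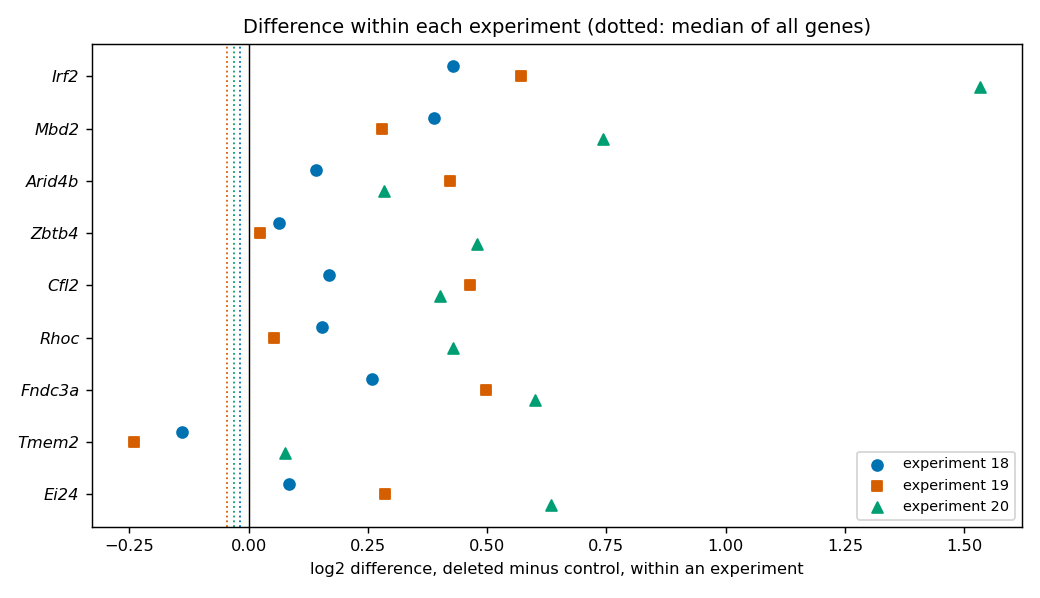
Log2 difference of deleted minus control within each experiment for the 9 genes, 1 point per experiment, with dotted lines at the median of all genes in each. Experiment 20 gives the largest difference for 7 genes and experiment 19 for Arid4b and Cfl2.

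Among the cytoskeletal and surface genes, Fndc3a had the largest difference. It encodes a fibronectin type III domain protein that mouse spermatids need to stay attached to Sertoli cells. Its intensity was 2315, 1748 and 1658 in controls 18, 19 and 20 and 2769, 2467 and 2514 in the deleted samples. All deleted samples were above all controls. The difference was 0.45 ± 0.14, with 0.26, 0.50 and 0.60 in the 3 experiments, and the deleted samples spanned 1.12-fold where the controls spanned 1.4-fold. With the block it had the smallest adjusted p of the 9 in limma, 0.159, which does not pass.

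Cfl2 encodes cofilin 2, the muscle-type actin-severing protein. Its intensity was 2886, 2099 and 2436 in controls 18, 19 and 20 and 3243, 2894 and 3220 in the deleted samples. Deleted 19, the lowest of its group, was just above control 18, the highest control. The difference was 0.34 ± 0.13. Rhoc, which encodes a small GTPase that drives actomyosin contraction and cell motility, had intensities of 2574, 2085 and 1922 in the controls and 2863, 2165 and 2587 in deleted 18, 19 and 20. Its groups overlapped, since deleted 19 was below control 18, and its difference of 0.21 ± 0.15 was 0.15, 0.05 and 0.43 by experiment.

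Tmem2, now named Cemip2, encodes a transmembrane hyaluronidase and was the exception. Its intensity was 1616, 2036 and 1133 in controls 18, 19 and 20 and 1467, 1725 and 1194 in the deleted samples. It was lower in deleted cells in experiments 18 and 19 and higher in 20, with a mean difference of -0.10 ± 0.25. The sign turned to 0.10 without control 19 and to 0.04 without deleted 20. With the block the 95% interval ran from -0.31 to 0.11, and without it from -0.72 to 0.52.

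Ei24, a p53-induced membrane protein of the endoplasmic reticulum with a part in autophagy, had the most even controls of the 9. They stood at 3245, 3074 and 3215 in experiments 18, 19 and 20, a span of 1.06-fold, and the deleted samples at 3442, 3749 and 4992. The groups did not overlap. The signal was 1.06-fold higher in experiment 18, 1.22-fold in 19 and 1.55-fold in 20, a mean difference of 0.34 ± 0.15. Here the spread lay in the deleted samples, which differed by 1.45-fold.

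**Figure D3:**
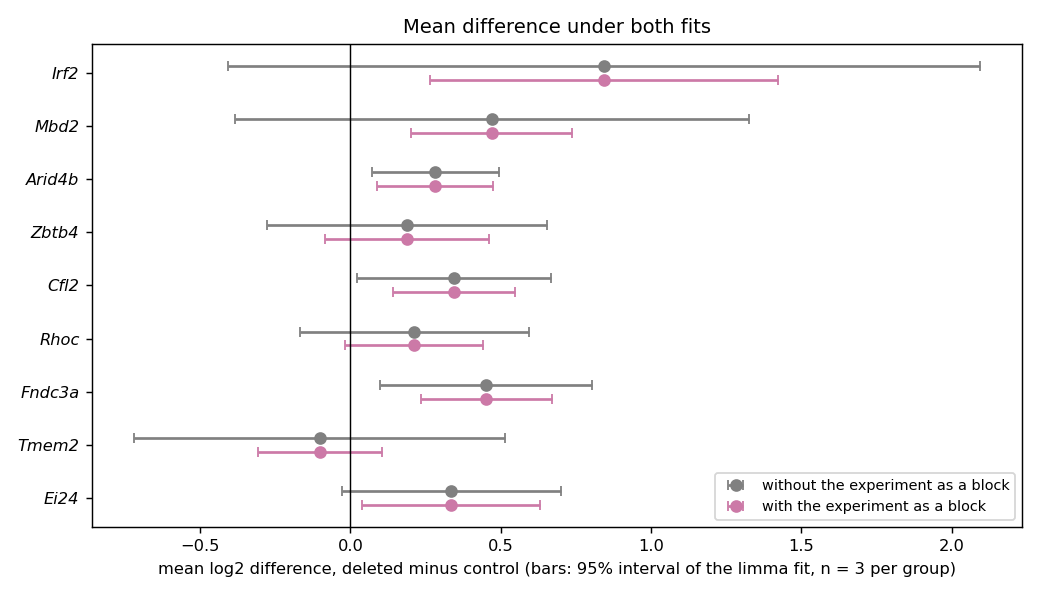
Mean log2 difference of each gene with its 95% interval from limma, in grey without and in pink with the experiment as a block, n = 3 arrays per group. With the block the intervals of Irf2, Mbd2, Arid4b, Cfl2, Fndc3a and Ei24 lie above 0, and those of Zbtb4, Rhoc and Tmem2 span it.

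The largest difference was in experiment 20 for 7 of the 9 genes, in experiment 19 for 2 and in experiment 18 for 0, where 38.7%, 28.3% and 32.9% of all genes had theirs. The highest control was that of experiment 18 for 7 of the 9 (32.9% of all genes) and the lowest that of experiment 20 for 6 (43% of all genes). Irf2, Zbtb4, Rhoc, Fndc3a and Tmem2 combined a lowest control with a largest difference in experiment 20, which for Tmem2 was 0.08 after -0.14 and -0.24 in the other two. A low control enters the difference of its own experiment, so these 2 counts are not independent. Mbd2 and Ei24 had their largest difference in experiment 20 without a lowest control there. Without experiment 20, the median of the 9 was 0.28.

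The genes with the most similar profile, by root mean square distance between log2 levels centred over the 6 arrays, were sought among the brighter genes. The nearest were Taok1 to Arid4b (0.04), Atf7 to Zbtb4 (0.04), Scamp5 to Cfl2 (0.04), Mxd4 to Rhoc (0.03) and Cenpi to Fndc3a (0.04). Tmtc3 lay nearest to Ei24 (0.05), Tacc2 to Tmem2 (0.05) and Clcn5 to Mbd2 (0.10). For Irf2, whose own root mean square deviation from its mean was 0.73, against 0.16 for Arid4b and 0.47 for Mbd2, the nearest was Olfr920 at 0.21, which differed by 0.09, 0.02 and 1.82 in experiments 18, 19 and 20. With 6 arrays and 10097 genes a near profile can be found for many genes.

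Related genes were set beside the targets, from the same fit and without a test of the difference between the 2. Fndc3b, the closest relative of Fndc3a and not among the 9, was at 0.69 ± 0.19. Its intensity was 1260, 1015 and 750.6 in controls 18, 19 and 20 and 1635, 1521 and 1616 in the deleted samples, with no overlap. Fndc3c1, on the same list, was at 0.24 ± 0.19. All 3 measured FNDC3 genes were higher in all 3 experiments, against 15.2% of all genes and 23.3% of the brighter ones. Arid4a, the partner of Arid4b in SIN3, was at 0.26 ± 0.26, with 0.16, 0.35 and 0.28 by experiment beside 0.14, 0.42 and 0.28 for Arid4b. Zbtb38 was at 0.16 ± 0.10 and, like Zbtb4, was highest above its control in experiment 20 (0.33).

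Other relatives had differences nearer to 0, or of both signs. Cfl1, the non-muscle cofilin, was at 0.11 ± 0.14 and Dstn, or destrin, at 0.07 ± 0.06. Rhoa was at 0.04 ± 0.07, and Rhob at 0.10 ± 0.72 with -0.40 in experiment 19 and 0.61 in 20. Mbd3, the NuRD subunit that takes the place of Mbd2, was at -0.05 ± 0.19, with -0.20 in experiment 20 where Mbd2 was at 0.74. Irf1 was at 0.25 ± 0.17 but was lower in experiment 19 (-0.14). The relative of Tmem2, listed as 9930013L23Rik, was dim, with intensities of 101.1 to 118.7, and differed by -0.06 ± 0.08. The adjusted p-values of these relatives in limma were all above that of Fndc3b, 0.824.

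**Figure D4:**
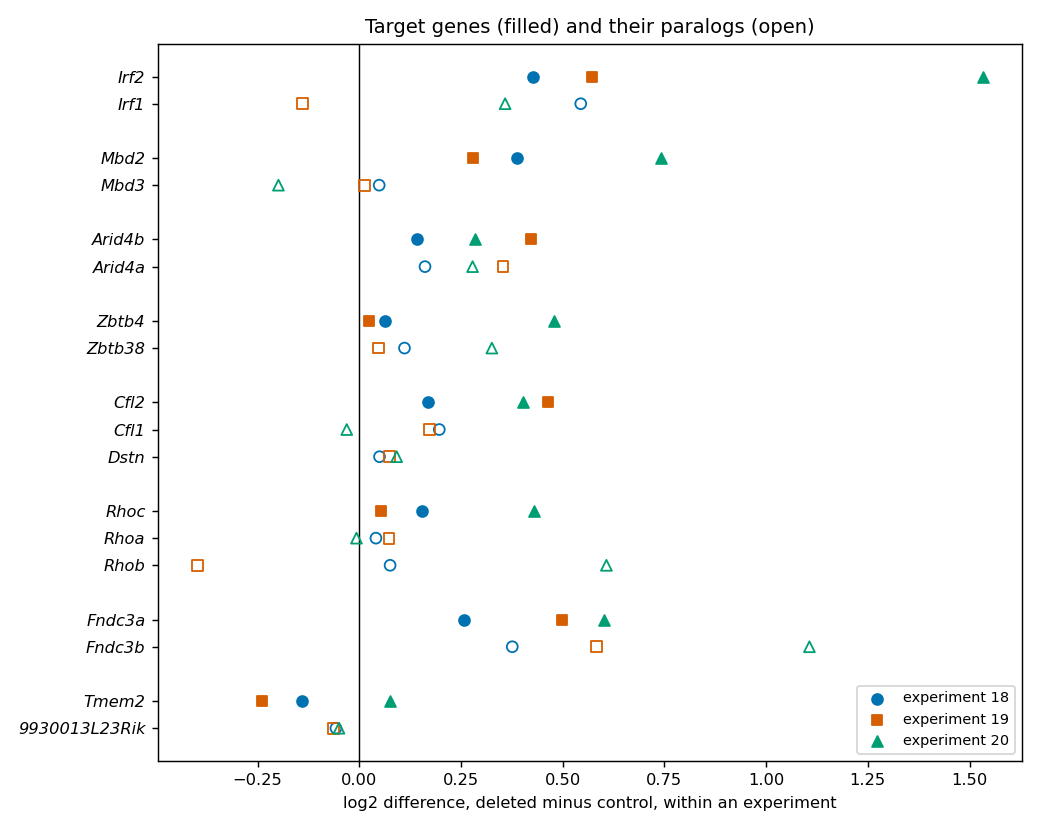
Log2 difference of deleted minus control within each experiment, filled for 8 of the 9 target genes and open for their relatives. Points of Fndc3b, Arid4a, Zbtb38 and Dstn lie above 0 in all 3 experiments, and those of Mbd3, Cfl1, Rhoa, Rhob and Irf1 fall on both sides.

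The complexes and pathways around the targets had medians of -0.06 to 0.11, apart from the FNDC3 genes. In limma 0 members of any of these lists passed over all genes. Of all genes 15.2% were higher and 28.3% lower in all 3 experiments, and of the brighter genes 23.3% and 21.6%. Of 12 measured NuRD subunits 5 were higher and 2 lower in all 3 experiments, with a median of 0.04. Next to Mbd2 stood the remodelling helicase gene Chd3 (0.24 ± 0.08) and the histone-binding gene Rbbp7 (0.19 ± 0.13). Of 17 SIN3 members 4 (23.5%) were higher and 1 lower in all 3, with a median of 0.07, led by both Arid4 genes and Brms1l (0.38 ± 0.29). Among 9 readers of methylated CpG the 3 that were higher in all 3 experiments were Mbd2, Zbtb4 and Zbtb38, and Uhrf1 was lower in all 3. Of 10 measured IRF family genes, Irf2 was the 1 that was higher in all 3 experiments and 3 were lower, among them Irf8 (-0.13 ± 0.15) and Irf3 (-0.14 ± 0.13). Irf8 (mean log2 level 7.63) and the third, Irf4 (6.19), were below the median gene level of 8.29, and 6 of the 10 were at or above it. At an unadjusted p under 0.05, with the block, these 4 lists had 3, 4, 1 and 1 higher genes and 0 lower, where 8.04% of all genes and 13.6% of the brighter ones were higher and 9.05% of all genes lower. The single reader and the single IRF gene were Mbd2 and Irf2 themselves, and Mbd2 and Arid4b were also among the 3 NuRD and 4 SIN3 genes.

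Cofilins and their regulators had 8 of 15 measured members higher in all 3 experiments and 1 lower, with a median of 0.11. The shares for such counts were 15.2% higher and 28.3% lower over all genes, and 23.3% and 21.6% over the brighter ones. Wdr1, which helps cofilin take filaments apart, was at 0.63 ± 0.37, with 0.79, 0.59 and 0.50 in experiments 18, 19 and 20. Pdxp, a phosphatase that activates cofilin, was at -0.41 ± 0.21 and lower in all 3. The list of small GTPases close to Rhoc, with their regulators and effectors, had 10 of 23 higher and 2 lower in all 3, with a median of 0.10, led by the formin gene Diap3 (0.34 ± 0.29), the effector kinase gene Pkn2 (0.28 ± 0.12) and Fmnl3 (0.25 ± 0.22). Hyaluronan genes had 1 of 11 higher and 3 lower, with a median of -0.06. Named by p there were the hyaluronan receptor genes Lyve1 (-0.10 ± 0.07), Stab2 (-0.10 ± 0.09) and Hmmr (-0.12 ± 0.25). The 3 lower genes were Lyve1 (mean log2 level 6.87), Stab2 (7.13) and 9930013L23Rik (6.76), all below the median gene level of 8.29. Of the 11 genes 6 were at or above it. Of 9 autophagy and p53 genes 5 were higher and 1 lower. Rb1cc1, an ULK complex subunit, was at 0.41 ± 0.21, Map1lc3b, the LC3B gene, at -0.24 ± 0.22 and lower in all 3, and Trp53 at 0.22 ± 0.22. With the block and at an unadjusted p under 0.05, the cofilin list had 5 higher and 1 lower, the small GTPase list 5 and 0, the hyaluronan list 0 and 0 and the autophagy list 4 and 1, beside the same 8.04% and 9.05% of all genes and 13.6% of the brighter ones higher. Cfl2 and Ei24 themselves are among the higher genes of the cofilin and autophagy lists.

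The 9 genes were last compared with 39 measured genes, of 40 listed, named as targets of these families from general knowledge and likewise unchecked. A higher mean was found for 35 of them. In each experiment 22 were higher (56.4%, against 15.2% of all genes and 23.3% of the brighter ones) and 2, Cdk2 and Crk, were lower, and the median difference was 0.17. In limma 0 passed over all genes, 5 were higher at an unadjusted p under 0.05 and 14 with the block, and 0 were lower in either. The shares higher were 2.22% and 8.04% of all genes without and with the block, and 3.86% and 13.6% of the brighter ones, which hold 34 of these 39. Those with the smallest p with the block were Dazap2 (0.63 ± 0.17), the survival kinase gene Akt1 (0.48 ± 0.11) and the initiator caspase gene Casp8 (0.50 ± 0.32). In the fit with the block their SEs were 0.10, 0.08 and 0.08. Dazap2 was at 0.45, 0.57 and 0.88 in experiments 18, 19 and 20. Bcl2l11, which encodes the death protein BIM of the study's title, was at 0.60 ± 0.17. Members near 0, picked after their values were seen, included Rela (0.01 ± 0.07), Trp53inp1 (0.01 ± 0.21) and Kdm1a (0.04 ± 0.10). By experiment the median of this list was 0.08, 0.18 and 0.31 in 18, 19 and 20, in the same order as that of the 9 genes. Both lists were chosen with earlier results of these data known, so neither count is independent evidence of a direction.

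**Figure D5:**
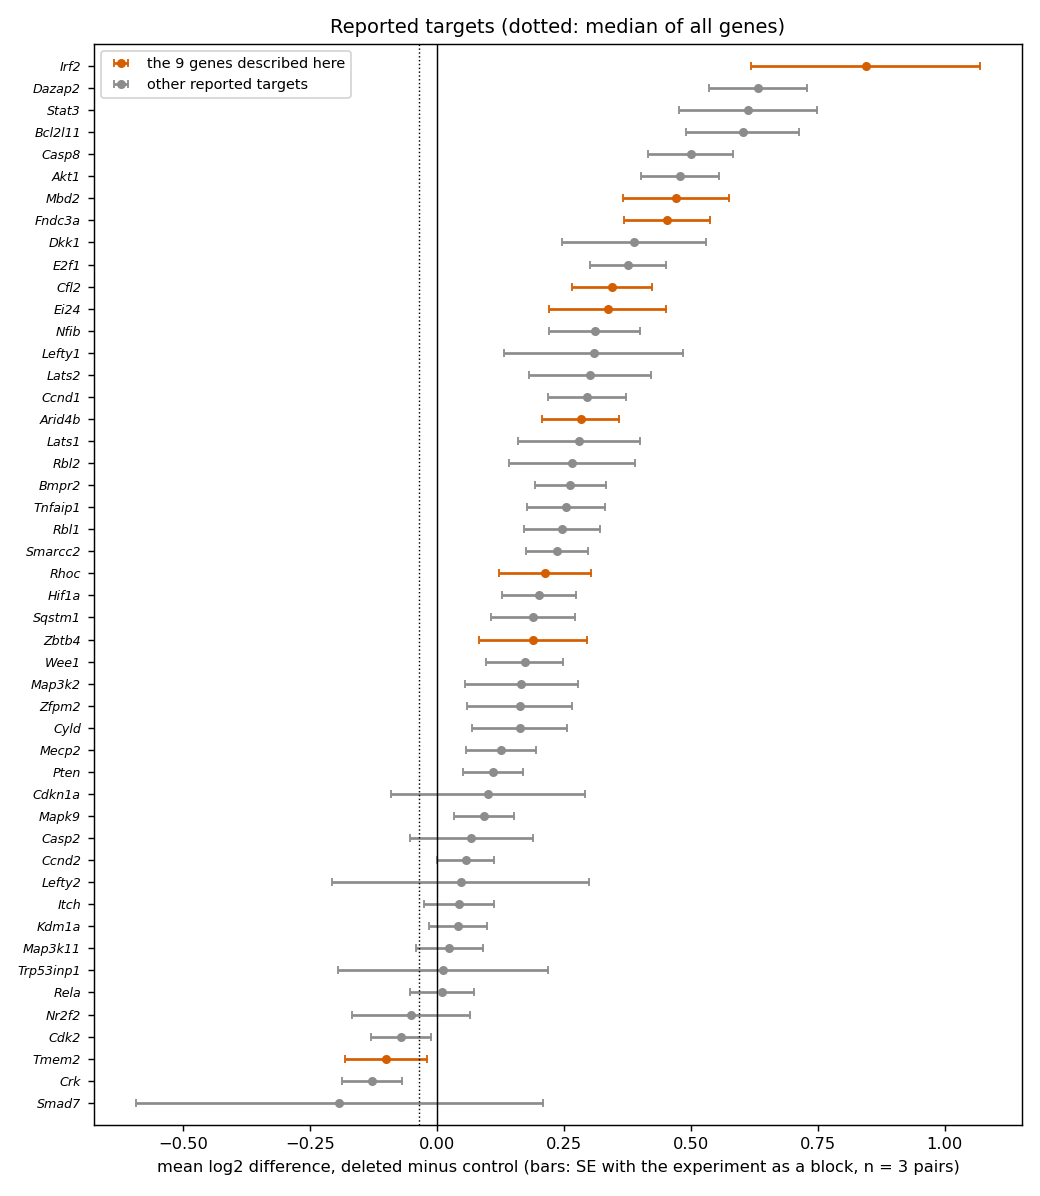
Mean log2 difference of deleted minus control for the 9 genes (orange) and 39 other genes listed as targets (grey), with the SE of the fit with the experiment as a block (n = 3 pairs) and a dotted line at the median of all genes. Irf2 stands at the top with 0.84, and Tmem2 (-0.10), Crk and Smad7 are at the bottom.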

How the data were processed

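RNA of 6 samples was hybridised to Affymetrix MoGene 1.0 ST arrays with an mm9 annotation, per the file headers, and processed with RMA and Affymetrix Expression Console 1.2, per the submitters' processing notes. The authors deposited a linear intensity, called raw in the header, and a log2 value, which equals the log2 of that intensity minus the probe set's median over the 6 arrays to within 2.31e-06. Because RMA brings the probe intensities of all arrays to 1 distribution, a shift common to most genes cannot be judged. The medians over probe sets still differed between arrays, from 247.7 to 260.1.

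Here log2 of the deposited intensity was used. Of 28856 probe sets, 22439 named 1 symbol. With 9 of several Entrez identifiers left out and the probe set of highest mean kept per gene, 20193 genes were tested with limma 3.58.1 in R 4.3.3 (group alone, eBayes, Benjamini-Hochberg over all genes, threshold 0.05). The alternatives included the experiment as a block. The experiment numbers pair the samples, as the labels describe 1 control and 1 deleted sample kept together in each, and their deviations from group means correlated across genes at r = 0.833, 0.607 and 0.797. The labels call the experiments independent and say no more of the cultures, so p-values set a difference against the spread between these samples. Without the block that is the spread of arrays within a group, and with it that of the differences within experiments. Scripts were tested on simulated data. Members, lists and tests were chosen with earlier results of these data known; named were all 9 genes, their relatives, and the 3 genes of each list with the smallest p with the block. Entrez identifiers of all 9 matched a RefSeq table of GRCm38.p6, used for names. Figures used matplotlib 3.10.9 in Python 3.11.15.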

Additional observations from a re-analysis of the deposited data

How the results depend on the processing

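Over the fit as reported and 19 alternatives, 8 of the 9 genes kept a positive difference in all 20 fits, from 0.31 to 1.24 for Irf2 and from 0.01 to 0.34 for Zbtb4. Tmem2 ranged from -0.33 without control 20 to 0.10; it turned from -0.10 to 0.10 without control 19 and to 0.04 without deleted 20. The median difference of the 9 was 0.22 to 0.43 when an array or experiment was left out and 0.33 to 0.34 otherwise. The count of the 9 that passed was 0 with the replicate block, and 0 to 1 higher when an array or an experiment was left out. The 1 was Irf2, without experiment 20 and with the block. At an unadjusted p under 0.05 it was 3, and 6 with the replicate block. Without experiment 20 and with the block, 4 of the other listed targets rose (Dazap2, E2f1, Lefty1 and Smad7), as did 3 genes of the lists around the targets (Cap2, Fndc3b and Wdr1), where the other fits that left out an array or experiment called 0. In experiment 20 itself Dazap2 and E2f1 were at 0.88 and 0.22, but Lefty1 and Smad7 at -0.20 and -1.45. Over all genes, leaving out an array or experiment gave 0 to 314 higher calls and 0 to 74 lower. The lower call of Dicer1 was lost, to 0, with the replicate block, with trend and robust settings, and with the block after quantile normalization, an alternative chosen after seeing the data, as were the other 2 that join the block to a filter or a scaling; the cause was not tested. It was also lost without any 1 array (adjusted p from 0.226 to 0.729) and, with the block, without experiment 18 (0.472) or 19 (0.428), and so was kept in 9 of 20 fits. The difference of Dicer1 stayed between -1.81 and -1.66 in all 20. The series value table held the same values, with a largest difference of 0, so that alternative is void and was not run. Signal over background could not be judged without detection calls.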
